A study of Rattus norvegicus with 16 samples.

Results

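The baseline transcriptome described here is that of dorsal CA1 from saline-injected juvenile rats, and its members are the 8 control libraries of a series of 16. The libraries were chosen by their saline label alone, and all 21698 isoforms of the deposited table were kept, under 16579 usable gene symbols. The animals were male Sprague-Dawley rats, given saline under the skin on postnatal day 7 and killed on postnatal day 14. They are the control arm of a study of early-life seizures, so they carry an injection of saline, and no uninjected animal or other age is described beside them. Brains were cut into slices of 400 µm, CA3 was cut away, the slices recovered for 60 min with cortex and dentate gyrus still attached, and CA1 was then isolated. RNA therefore comes from tissue that had been sliced and kept in artificial fluid. Only the numbering of the titles shows that each library is a rat of its own.

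CA1 is the output field of the hippocampus proper. Its pyramidal neurons receive glutamatergic input from CA3 and from entorhinal cortex and project to the subiculum and cortex, under the control of many kinds of GABAergic interneuron. In the second postnatal week of the rat, synapses form at a high rate, astrocytes mature and oligodendrocytes begin to myelinate, and many neuronal genes are read as several isoforms that differ in exons, start or end.

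The deposited value of an isoform is a log2 number, and its 2-power is used below as a measure of reads. A gene's value is the log2 of the summed 2-powers of its isoforms, and shares are percentages of the sum over all isoforms of a library. Long transcripts collect more reads than short ones, and lengths were not used here, so a share says where reads went and not which gene had more molecules. How many reads lie behind each library is unknown. The median isoform had a mean of 8.96, the range being 1.596 to 20.07. An isoform or gene with a mean under 5 is called low, and 3460 isoforms and 2096 genes were low.

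Control 2 stood apart from the other libraries, and replicates 1 to 4 stood apart from replicates 5 to 8. The first principal component held 50.5% of the variance, with scores of -25.3 to -7.15 in replicates 1 to 4 and 11.2 to 15.8 in replicates 5 to 8. The second held 24.2% and set control 2, at -19.6, against 7.68 to 15.3 in the others of replicates 1 to 4. The labels name no batch, and the 2 sets were seen in the data. They are used below as a description only, without a test.

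Transcripts of the mitochondrial genome took the largest shares of reads. Together they held 9.81% ± 0.79 of all reads (SD, n = 8), with a low of 8.30% in control 2, a median of 10.0% and a high of 10.5%. Mt-co1, a catalytic subunit of cytochrome c oxidase, held 1.94%, 2.47% and 2.59% as lowest, median and highest share. It ranked first in the mean, ahead of Mt-cox3 at 1.21% ± 0.11, Mt-atp6 of the ATP synthase at 1.05% ± 0.086 and Mt-cyb of complex III at 0.960% ± 0.062 (SD, n = 8). The 11 genes with the largest mean shares all lay on the mitochondrial genome, and 2 of them were its ribosomal RNAs, which together held 0.713% ± 0.083. Mt-nd6, the subunit encoded on the opposite strand, had a log2 value of only 10.95 to 11.41. The share of reads in mitochondrial ribosomal RNA also depends on how libraries were made, which the labels do not say.

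Reads were spread over many nuclear genes. The 10 top genes held 9.19% of reads, the top 100 held 22.4% ± 0.81, the top 1000 held 53.0% ± 0.64 (SD, n = 8), and 846 genes were needed to reach 50%. Of the 100 top genes 78 were among the top 100 in every library. Protein-coding isoforms, 20008 of them, held 97.9% of reads, long intergenic RNAs 0.196% and pseudogenes 0.407%.

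Among nuclear genes, Tuba1a, the alpha tubulin of growing neurons, held the largest share, 0.325% ± 0.035, from 0.273% to 0.395% with a median of 0.324%. Calm2, which encodes calmodulin, held 0.307% ± 0.012, the sum over Ensembl genes on chromosome 15, with 0.164% ± 0.011, and on chromosome 6, with 0.143% ± 0.0048, so its place in the order rests on the shared symbol. Atp1b1, a beta subunit of the sodium pump, held 0.205% ± 0.013 (SD, n = 8). Myelin basic protein, Mbp, held 0.284% ± 0.030, with a range of 0.236% in control 3 to 0.324% in control 2, wider than the 0.283% to 0.319% of Calm2.

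Scd2, a desaturase of fatty acid synthesis, held 0.262% ± 0.020, and Cpe, which trims neuropeptide precursors, 0.260% ± 0.0080. Sparcl1, a synapse-organizing protein secreted by astrocytes, held 0.239% ± 0.018. The spectrin Sptan1, which lines the plasma membrane of axons and dendrites, held 0.209% ± 0.0095. The chaperone Hsp90ab1 held 0.195% ± 0.0049, and the tubulin Tubb2a 0.191% ± 0.018 (SD, n = 8). Hsp90ab1 and Cpe were the steadiest of the 12 genes plotted relative to their share, while Actb and Tuba1a were high in a single library.

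Actb, cytoplasmic beta actin, held 0.248% in control 2 and 0.183% to 0.193% in the other 7. A gene annotated as actin gamma 1 propeptide-like, LOC100361457, held 0.206% in control 2 and 0.222% to 0.257% elsewhere. The entry named Actg1 itself had log2 values of 14.02, 12.34 and 11.71 in controls 2, 3 and 4, 9.79 in control 6 and 7.62 to 7.89 in the remaining 4. Actin genes are closely related in sequence, and how the counting divided reads among these entries was not tested, so each value is uncertain.

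**Figure D1:**
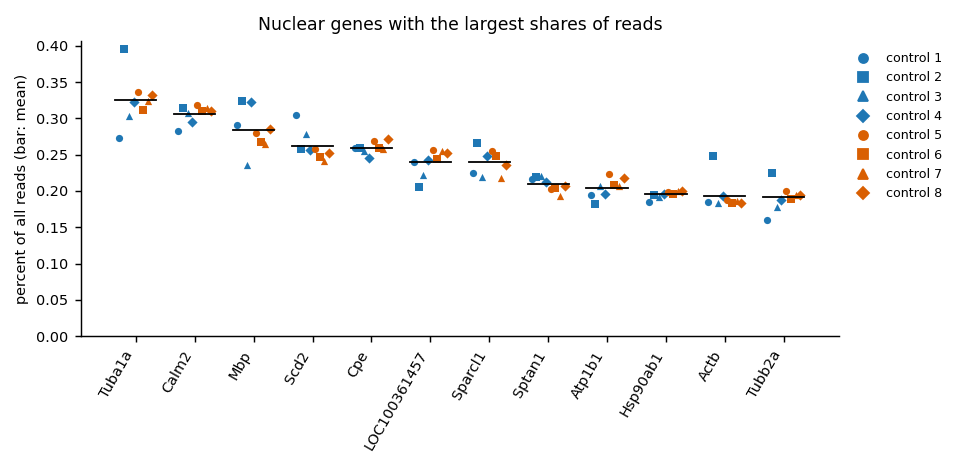
Share of all reads (percent, linear axis from 0) of 12 nuclear genes among those with the largest mean shares, in each of the 8 control animals; blue marks are replicates 1 to 4, orange marks replicates 5 to 8, and bars are means. Tuba1a, Tubb2a and Actb have their highest mark in control 2, while Hsp90ab1 stays between 0.185% and 0.200% in all 8.

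The labelled tissue was checked against markers of CA1 pyramidal neurons, most of them known from mouse. Of 16 listed, 12 were measured, and 11 were at or above a mean of 5, as were 87.4% of all genes. Wfs1, which encodes the endoplasmic reticulum protein wolframin, ranged from 14.98 to 15.25 with a median of 15.05. Fibcd1, a membrane receptor with a fibrinogen-like domain, ranged from 14.45 to 14.84 (median 14.56), and Mpped1, a putative phosphoesterase, from 14.35 to 14.75 (median 14.57). Neurod6, a transcription factor of pyramidal neurons, ranged from 13.15 in control 2 to 13.87 (median 13.76). The exception was Spink8, at 3.26 to 3.31. In bulk tissue, fewer cells of a type and less RNA per cell cannot be told apart, here and in the lists below.

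Markers of neighbouring fields had a wide range of levels. For CA2, Necab2, a calcium-binding protein, had a mean of 12.83 and Rgs14, a regulator of G protein signalling, 12.42, while Map3k15 was at 2.35 ± 0.016 (SD, n = 8). For CA3, Chgb, a granin of secretory vesicles, had a mean of 13.81, Dkk3 12.94 and Grik4, a kainate receptor subunit, 10.26. For the dentate gyrus, Prox1, a transcription factor of granule cells, ranged from 10.96 to 11.55 with a median of 11.13, and C1ql2, a secreted C1q-like synaptic protein, from 9.52 to 10.39 (median 10.03). Of 13 measured dentate markers 12 were at or above 5, beside the 87.4% of all genes, and some isoforms have a floor above 5. How much of this is granule cell RNA carried over from the dissection, and how much CA1's own, was not tested.

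The list for cortical layers varied little in its mean, at 9.54 ± 0.021, with Bcl11b, a transcription factor also of hippocampal neurons, at a mean of 12.80 and Fezf2, of deep-layer projection neurons, at 9.90. The subicular list was led by the neuropeptide precursor Nts, at 12.31 to 12.94 (median 12.71), and by Fn1, fibronectin, at 11.98 to 12.33 (median 12.14). The thalamic list of 7 measured genes had its highest member, Rgs16, at a mean of 9.27 and Tcf7l2 at 8.86 to 9.20. Reln, the secreted signal of Cajal-Retzius cells and of some interneurons, ranged from 13.42 to 14.33 (median 13.84). Lhx1 and Lhx5, transcription factors that define Cajal-Retzius cells, were low, at 4.45 each, and Tp73 was at 8.45.

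Genes of excitatory neurons and interneurons differed between animals by fractions of a log2 unit. Slc17a7, the vesicular glutamate transporter of cortical and hippocampal neurons, ranged from 15.94 to 16.27 (median 16.07), and Camk2a, the kinase of the postsynaptic density, from 15.72 to 16.13 (median 15.90). Nrgn, a calmodulin-binding protein of dendritic spines, ranged from 15.34 to 15.97 (median 15.76). The interneuron list, with all 20 listed genes measured, had a mean of 10.11 ± 0.021 (SD, n = 8). It held Gad2 at 13.69 to 14.06 and Gad1 at 12.85 to 13.13, the enzymes of GABA synthesis, and Kit at 12.44 to 12.69. Sst, the somatostatin of dendrite-targeting interneurons, varied more, from 11.93 to 12.63 with a median of 12.28.

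Genes of immature neurons and of dividing cells were still read at this age. Stmn2 and Gap43, proteins of growth cones, had means of 15.71 and 14.07, Tubb3, a neuronal tubulin, 14.93, and Marcksl1 14.37. Dcx, doublecortin of migrating neurons, ranged from 12.48 to 12.84 (median 12.61), whereas Eomes, of intermediate progenitors, was at 5.28 ± 0.032. Among 17 measured genes of dividing cells, Pcna had a mean of 11.09, Top2a 9.74, Mki67 9.66 and Mcm2 9.11.

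Among glia, the astrocyte list had the largest share of reads of the cell type lists, 0.792% ± 0.039, over 15 genes. The share of a list depends on which genes were listed and how many, so it does not rank the cell types. Glul, glutamine synthetase, ranged from 16.09 to 16.30 (median 16.17), Aqp4, the water channel of astrocyte endfeet, from 15.68 to 16.09, Slc1a3, a glutamate transporter, from 15.70 to 16.03, and Gfap, the intermediate filament, from 15.45 to 15.67. The myelin list of 19 genes held 0.672% ± 0.067, ranging from 0.572% in control 3 to 0.760%. It held Mbp at 16.72 to 17.18, Cnp at 14.84 to 15.22 and Mag at 13.36 to 13.97. Control 3 was the lowest animal for 10 of the 19 genes, against 8.76% of all genes, and none of the 19 was lowest in control 1.

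Oligodendrocyte precursor genes held 0.193% ± 0.024. Ptprz1, a receptor phosphatase, ranged from 15.08 to 15.61 (median 15.20), Tnr, the extracellular matrix protein tenascin-R, from 12.84 to 13.66 (median 13.19), Pdgfra, the growth factor receptor of precursors, from 12.98 to 13.30 (median 13.15) and Olig1 from 12.85 to 13.31 (median 13.05). Microglial genes held 0.0484% ± 0.0027 of reads, with Csf1r, the receptor for their survival factor, at 12.50 to 12.82, C1qb at 10.71 to 11.10 and C1qa at 10.46 to 11.01. Control 7 was the highest animal for 12 of the 15 measured microglial genes, against 18.3% of all genes. This was not particular to microglia. Control 7 was also highest for 6 of 7 red blood cell, 6 of 11 meningeal, 6 of 14 endothelial and 5 of 12 mural genes. The same held for 55 of 80 ribosomal protein and 41 of 74 respiratory chain genes, but for 0 of 15 astrocyte and 0 of 19 myelin genes.

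Vessel and border tissue was present in every library. Cldn5, of endothelial tight junctions, had a mean of 12.26, Slc2a1, the glucose transporter of the blood-brain barrier, 12.15, Itm2a 12.06 and Vwf 11.58. In mural cells, Notch3 ranged from 11.89 to 12.17 and Pdgfrb from 11.42 to 11.71. Of the meningeal list, Dcn, decorin, which is also in the CA1 list, ranged from 10.94 to 11.62, Bgn from 11.21 to 11.55 and Col1a1, a fibrillar collagen, from 10.66 to 11.31. Hba-a1 and Hbb, the globins of red blood cells, had means of 13.26 and 12.91. Of other erythroid genes, Alas2 had a mean of 7.00 and Slc4a1 5.21, while Ahsp and Epb42 were low, at 4.01 and 3.62.

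Choroid plexus content was close to the floor of the table. Of the 8 genes measured 5 were low, Kl being at 2.44 ± 0.014 and Clic6 at 2.19 ± 0.0070 (SD, n = 8), with Folr1 at 7.23 and Enpp2, which oligodendrocytes also express, at 10.76. Ttr, the gene that best defines this tissue, was not analysed here. Ciliated ependymal cells left more of a trace, with Hydin, a protein of the cilium's central pair, at 9.78 to 10.52 (median 10.04), Ak7 at 9.001 to 9.67 (median 9.33) and Ccdc153 at 8.68 to 9.43 (median 9.09). Control 1 was the lowest animal for 8 of the 12 ependymal genes, against 20.9% of all genes. Control 2 was the highest for 7 of the 12, against 21.8% of all genes.

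**Figure D2:**
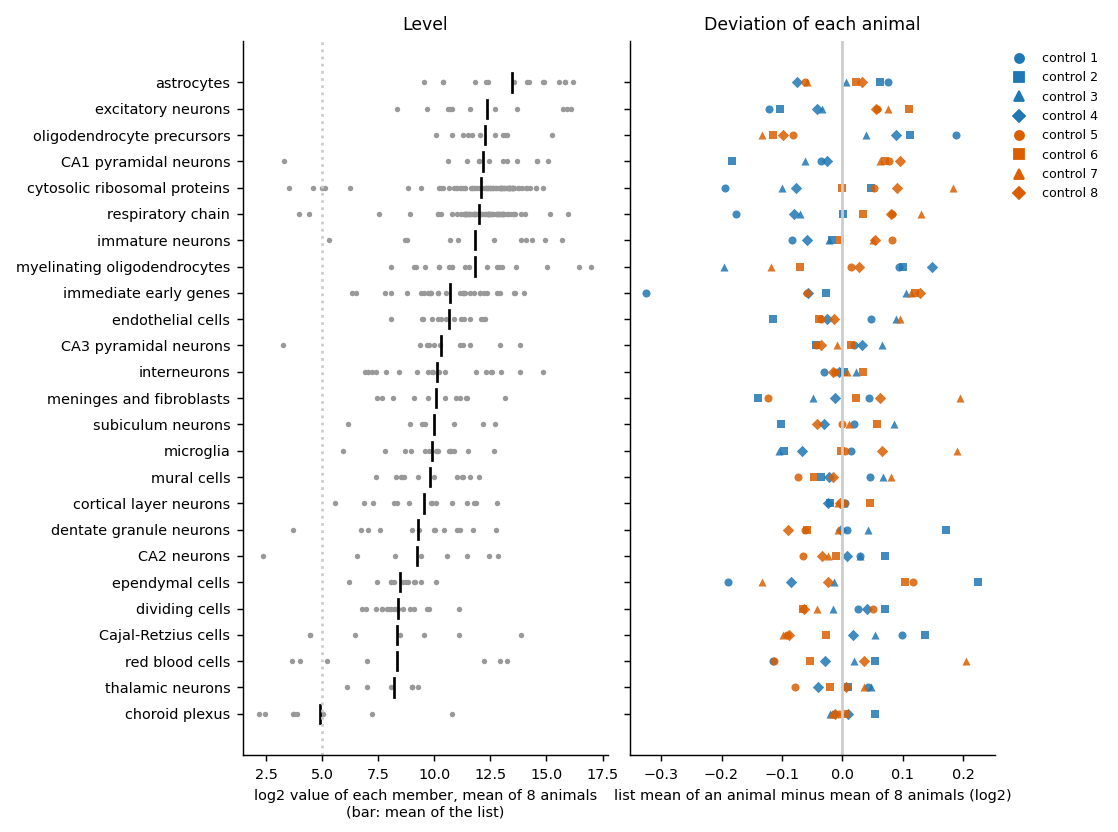
Marker lists ordered by the mean log2 value of their measured members. Left, each grey point is a member (mean of 8 animals), the bar is the mean of the list and the dotted line is at 5; right, each mark is an animal's list mean minus the mean of the 8 animals (blue, replicates 1 to 4; orange, replicates 5 to 8), with control 1 far to the left for immediate early genes at 10.39 against a mean of 10.72.

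Most genes were listed with 1 isoform, a count that depends on the annotation and on which isoforms the authors listed. Of the 16579 symbols, 12818 had 1 isoform in the table and 3761 had several, 8829 isoforms in all, which together held 32.2% of reads. The isoform with the most reads on average, called the top isoform, was also the top in each of the 8 animals in 3527 of these genes (93.8%). Its median share of the gene's reads was 79.6%, with quartiles at 64.5% and 93.2%. In 1200 genes it exceeded 90%, and in 684 (18.2%) it stayed under 60%. The reads outside the top isoforms amounted to 21.1% ± 1.01 (SD, n = 8). Isoforms with under 10% of their gene's reads numbered 2264, or 25.6% of those 8829, and held 2.42% of the reads of these genes. A symbol can cover more than a single Ensembl gene, which was so for 97, and isoform values also reflect how the counting divided shared reads.

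The median share of the top isoform was 82.5% in genes with 2 isoforms, 71.3% with 3, 67.0% with 4 or 5 and 55.9% with 6 or more. The lowest share a top isoform can have falls as isoforms are added, so part of this fall is arithmetic. The top isoform was the same in all animals in 94.6% of genes with 2 isoforms and in 77.6% of the 67 genes with 6 or more. Map2 and Gabbr1 had the most, 11 each. Map2, the microtubule protein of dendrites, was dominated by 1 isoform with 84.1% to 92.8% of its reads (median 91.6%). Gabbr1, a GABA-B receptor subunit, was divided, its top isoform holding 44.6% to 53.2% (median 46.4%), the next 19.3% and the following ones 12.6% and 11.8%. Pcdhac1, of the clustered protocadherins that give neurons a surface identity, had 10 isoforms, of which the top held 41.9% ± 1.01 and the other 9 between 2.75% and 9.17% each. Atat1, the tubulin acetyltransferase, had its top isoforms, with 45.3% to 50.4% and 38.1% to 42.5%, annotated as processed transcripts without a coding frame.

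**Figure D3:**
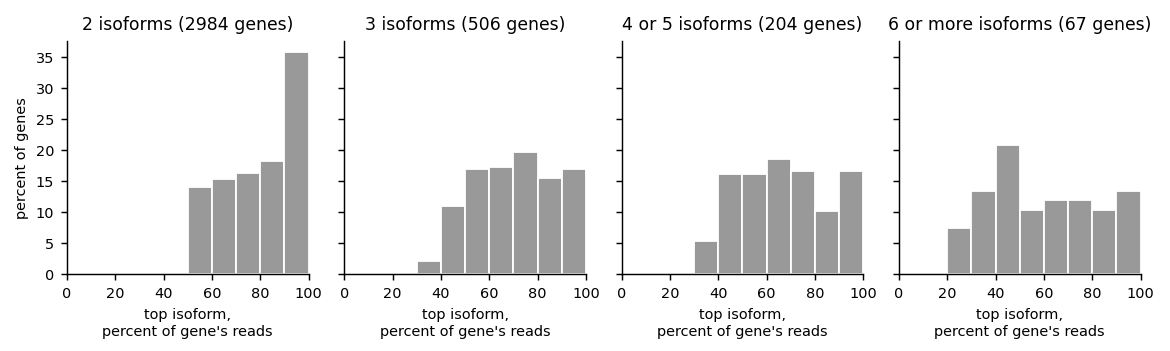
Share of a gene's reads held by its top isoform (percent, horizontal axis), as the percent of genes in each bin of 10 points, for genes with 2, 3, 4 or 5, and 6 or more isoforms in the control animals. The distribution moves from the bin above 90% in genes with 2 isoforms towards 40% to 50% in genes with 6 or more, and the lowest possible share also falls with the number of isoforms.

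Some of the most read genes had no clear top isoform. Calm2 was split 53.5% to 46.5%, but its isoforms belong to separate Ensembl genes on chromosomes 15 and 6 of the table, so this is a division between loci. Myelin basic protein was read as 3 main isoforms of 48.5% ± 2.4, 32.0% ± 2.1 and 17.2% ± 1.1, and the order was the same in all 8 animals. Ndrg4, a cytosolic protein of neurons, was at 51.7% to 60.6% for its top isoform, and Atp2a2, the calcium pump of the endoplasmic reticulum, at 54.9% to 60.2%.

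The top isoform changed between animals in 234 genes, and 8 of these, the highest in level, are given here. Sptan1, alpha spectrin, had isoforms of 45.7% ± 1.2 and 43.5% ± 1.4, and the second was ahead in 2 animals. Sptbn1, beta spectrin, had a first isoform at 39.1% in control 2 and 49.6% to 53.0% in the others, with a median of 51.3%. Dgkz, a diacylglycerol kinase, ranged from 36.3% in control 2 to 66.5% (median 62.0%). Apc, a scaffold of microtubules and of Wnt signalling, was at 44.8% in control 2 and 53.1% to 58.6% elsewhere. Sirt2, a deacetylase abundant in oligodendrocytes, ranged from 48.9% to 55.7% (median 51.0%).

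Ank2, the ankyrin of axons, had 3 isoforms of 32.9% ± 2.2, 29.0% ± 2.3 and 28.5% ± 2.2 among 9. Ncam1, the neural cell adhesion molecule, had 38.1% ± 2.8, 33.5% ± 0.99 and 28.4% ± 2.4. Arpc2, of the actin-nucleating complex, had 39.4% ± 3.9 and 35.5% ± 3.9 in its first 2 of 9 (SD, n = 8). In 116 genes a single animal departed from the other 7, and this animal was control 2 in 62 of them. Without control 2, the top isoform was shared by all remaining animals in 3589 genes. Between the means of replicates 1 to 4 and of 5 to 8, the top isoform was the same in 3691 genes (98.1%), and in 9 genes every animal of a set agreed and the sets differed. Of those 9 the highest in level were Trrap and Grm5, the metabotropic glutamate receptor 5, whose top isoform in replicates 1 to 4 held 52.5% there and 48.9% in replicates 5 to 8.

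**Figure D4:**
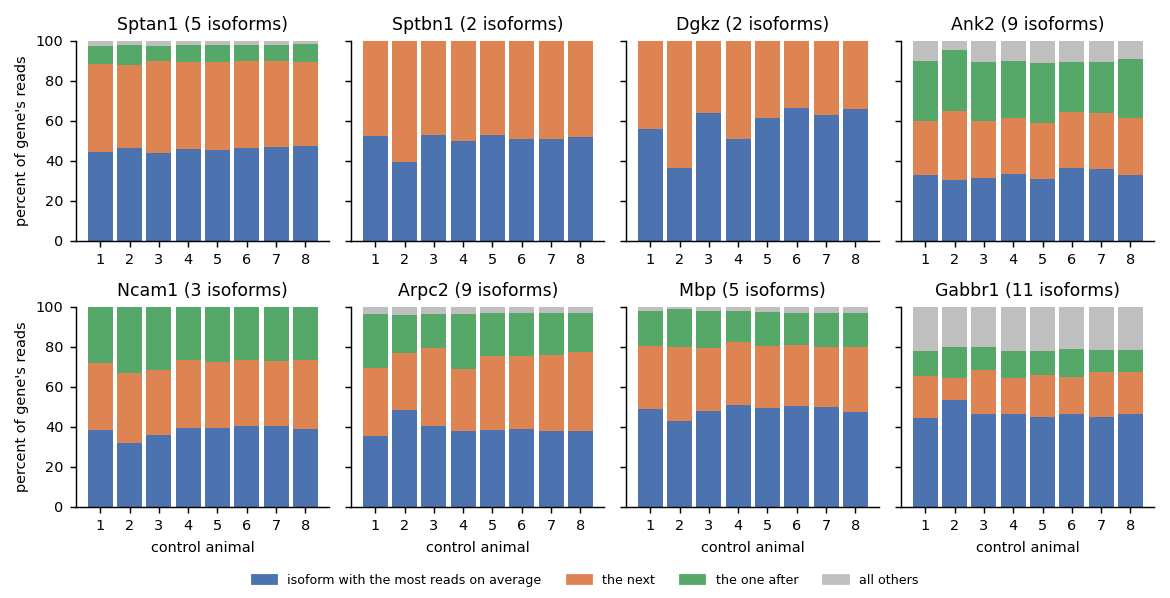
Percent of each gene's reads in its isoforms, by control animal, for 8 of the most read genes with no clear top isoform; blue is the isoform with the most reads on average, orange and green are the next ones, and grey is all others. Control 2 departs most in Sptbn1 and Dgkz, with 39.1% and 36.3% in blue.

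For genes with exactly 2 isoforms, the difference between them within each animal was tested with limma against 0. Of 2979 genes tested, 2896 passed an adjusted p of 0.05 (97.2%), and in 2276 of these the difference exceeded 1 on the log2 scale, a doubling. The median size of the difference was 2.25, beside a median SE of 0.049. Each isoform has a floor of its own, so a pair with an isoform near its floor can pass through a constant offset. With both isoforms at a mean of at least 5, 2189 of 2268 genes passed (96.5%), though some floors lie above 5. Equal values of 2 isoforms are not the usual case, so the share that passed says little by itself. The 83 genes that did not pass had a median difference of 0.065 and a largest of 0.36. In Sptbn1 the difference was -0.00096 ± 0.086 (SE, n = 8; limma adjusted p = 0.992), and it rested on control 2, without which it was -0.093 ± 0.032 and passed (SE, n = 7; limma adjusted p = 0.0190). In Dgkz it was 0.47 ± 0.19 (SE, n = 8; limma adjusted p = 0.0321) with 7 animals of that sign, and 0.65 ± 0.11 without control 2 (SE, n = 7; limma adjusted p = 2.2e-04). The Dgkz difference no longer passed without control 3, 5, 6, 7 or 8, where it was 0.40 to 0.44. In Sirt2 it was 0.11 ± 0.049 (SE, n = 8; limma adjusted p = 0.0447) with 7 animals of that sign. Sirt2 passed without control 2, at 0.14, and did not pass when any of the other 7 was left out, at 0.083 to 0.13. A longer isoform collects more reads, so this test orders isoforms by reads and not by molecules.

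A panel of 60 genes known for isoforms with distinct roles was described beside the whole. Of 51 with several isoforms in the table, 46 had the same top isoform in all 8 animals. The median top share was 76.5%, with 17 genes over 90% and another 17 under 60%. Over all genes with several isoforms, 93.8% had the same top isoform in all 8 animals. Their median was 79.6%, with 31.9% of genes over 90% and 18.2% under 60%. App, the amyloid precursor protein, had a second isoform at 33.3% in control 2 and a median of 8.81%, the lowest being 7.34%. Camk2a was read as 1 isoform, 99.9%, as was Camk2b, its partner subunit, at 96.6% ± 0.33, and Dlg4, the postsynaptic scaffold PSD-95, at 94.7% ± 0.42 (SD, n = 8). For Gria2, the AMPA receptor subunit that limits calcium entry, the isoforms stood at 61.6% ± 2.2 and 38.4% ± 2.2, with the first ahead in all 8 animals (limma adjusted p = 1.51e-07, n = 8).

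Dclk1, a doublecortin-like kinase, had 79.6% ± 1.4 in its top isoform, and Atp2b1, the plasma membrane calcium pump, 92.6% ± 0.80. Nfasc, neurofascin of the axon initial segment and node, was divided into 36.3% ± 1.0, 33.8% ± 1.9 and 29.9% ± 2.2, and its first isoform led in all 8 animals. Shank1, a postsynaptic scaffold, had isoforms of 55.7% ± 1.9, 33.1% ± 2.0 and 11.1% ± 0.86 (SD, n = 8).

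In 25 of 3674 protein-coding genes with several isoforms (0.680%) the top isoform was of a type without an ordinary coding frame. Of these 14 were processed transcripts, 8 were annotated as targets of nonsense-mediated decay and 3 as retaining an intron. Lynx1, a modulator of nicotinic receptors, had 94.9% to 96.4% in an isoform annotated for nonsense-mediated decay. Nrxn3, a presynaptic adhesion molecule, had 98.0% ± 0.31 in a processed transcript, and Iqsec2, a synaptic exchange factor, had 90.6% ± 1.3 in another processed transcript (SD, n = 8). The type is that given in the annotation of the table.

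On the deposited scale, the spread between animals was small for most genes. The median SD of a gene over the 8 animals was 0.081 on the log2 scale, a difference of 5.79%, and 446 genes (2.69%) had an SD over 0.25, of which 12 were over 1. With the means of replicates 1 to 4 and of 5 to 8 removed, 206 genes had an SD over 0.25. Isoforms near their floor vary little on this scale, so the SD of a low gene reflects the scale as well as the animals. The part of each was not tested. Median SD was higher at higher levels, being 0.017 in the lowest decile of genes by mean and 0.108 in the highest. A gene is therefore called variable when its SD was in the top 10% of its own decile of mean level, which gives 1660 genes (10%) by construction. The steadiest genes with a mean of at least 8 were Eif4b, a translation initiation factor, at 12.96 to 13.00 (SD 0.012), and Tor1b, a protein of the endoplasmic reticulum, at 9.50 to 9.53 (SD 0.013). Next came the splicing factor Sf1, Uba2 of the SUMO pathway and the acetyltransferase Naa40, with SDs of 0.015, 0.016 and 0.016.

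Differences between replicates 1 to 4 and 5 to 8 accounted for 46.9% of the variance, and 33.5% of genes did not overlap between the sets, 15.5% higher in replicates 1 to 4 and 18.1% higher in replicates 5 to 8. Within sets the median SD of a gene was 0.058. It was 0.066 in replicates 1 to 4, 0.045 in those without control 2, and 0.039 in replicates 5 to 8. Grin2b, the NMDA receptor subunit of young synapses, was at 12.22 to 12.62 in replicates 1 to 4 and 11.52 to 11.82 in replicates 5 to 8. Zbtb20, a transcription factor that specifies CA1 identity in mouse, was at 10.87 to 11.47 and 9.97 to 10.19. For both genes the sets did not overlap.

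Of the marker lists, CA1 genes were the higher in replicates 5 to 8, with list means of 12.24 there and 12.09 in replicates 1 to 4. Fibcd1, Mpped1, Neurod6 and Itpka did not overlap between the sets, and Nr3c2, the mineralocorticoid receptor, was the higher in replicates 1 to 4. Of 13 dentate genes 7 were the higher in replicates 1 to 4 without overlap, among them Prox1, Sema5a and Dock10, and none the other way. Part of the spread of these 2 lists lay in control 2. It was the lowest animal for 7 of 12 CA1 genes, against 24.1% of all genes. It was the highest for 7 of 13 dentate genes, against 21.8%. Without control 2 the SD of the list mean fell from 0.095 to 0.064 for CA1 and from 0.081 to 0.047 for the dentate gyrus. Of 11 precursor genes 7 were the higher in replicates 1 to 4 without overlap, among them Ptprz1, Tnr and Pdgfra, while Olig1 was the higher in replicates 5 to 8. Of 74 nuclear genes of the respiratory chain 37 were the higher in replicates 5 to 8 without overlap and 1 the lower, and of 80 ribosomal protein genes 28 were the higher and 0 the lower, beside 18.1% and 15.5% of all genes.

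Other measures of the libraries moved with the same sets. Long intergenic RNA held 0.204% to 0.214% of reads in replicates 1 to 4 and 0.181% to 0.188% in replicates 5 to 8, and processed transcripts held 0.517% to 0.535% and 0.454% to 0.480%. The mitochondrial share overlapped, being 8.30% to 10.0% in replicates 1 to 4 and 10.0% to 10.5% in replicates 5 to 8. The part of these in the differences between the sets was not tested.

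Some isoforms were on in some animals and near a floor in others. A gap of more than 1 on the log2 scale between neighbouring animals in rank was found in 105 isoforms of 101 genes, a rule chosen after the values were seen. In 73 of them 1 animal stood apart from the rest, and in 51 that animal was control 2, standing high. Without control 2, 56 isoforms had such a gap. The largest gap was in an isoform of Slc17a7 that held 13.58 in control 2 and 6.25 to 7.65 in the other 7, while the gene as a whole did not depart. In 10 isoforms control 6 alone was high. Among these were Rn7sl1 and Rn5-8s, small structural RNAs of the signal recognition particle and of the ribosome, and the values of several are identical between copies, so they are not independent.

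The isoforms with the largest SD among those with a mean of at least 8 followed several patterns. In 6 isoforms replicates 1 to 4 were high and replicates 5 to 8 low, without exception and with the gap between the sets. These included 1 of Ranbp2, a nucleoporin (9.08 to 10.07 and 6.81 to 6.85), 1 of Nedd4, a ubiquitin ligase (8.98 to 9.75 and 6.76 to 6.79), and 1 of Camsap2, which binds microtubule minus ends (9.17 to 9.92 and 7.20 to 7.34). The reverse was seen in 1 isoform of Ewsr1, an RNA-binding protein, at 7.31 to 7.44 in replicates 1 to 4 and 9.51 to 9.90 in replicates 5 to 8. These isoforms were 7.90%, 1.09%, 4.44% and 19.7% of the reads of Ranbp2, Nedd4, Camsap2 and Ewsr1.

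Asb15, an ankyrin repeat protein of ubiquitin ligases, cut across the sets. It was at 9.42 to 10.36 in controls 1, 3, 5 and 6 and at 7.14 to 7.38 in controls 2, 4, 7 and 8. Car3, a carbonic anhydrase, was at 9.44 and 9.88 in controls 4 and 5 and at 7.61 to 7.85 in the rest, and Fam111a was at 9.19 and 9.33 in controls 7 and 8 and at 7.56 to 7.99 in the rest. RragB, a GTPase of nutrient sensing, was at 8.30 in control 2 and at 10.22 to 11.26 elsewhere. Clip2, a microtubule linker, had an isoform at 10.26 to 10.52 in replicates 1 to 4 and 7.404 to 9.21 in replicates 5 to 8. Among other entries of this kind were copies of ribosomal protein genes and ribosomal RNAs, LOC100362027, LOC100365839 and 5S_rRNA, with SDs of 1.70, 1.66 and 1.27. Entries of this kind have related copies in the genome, so their values are uncertain, and the part of this in the SDs was not tested.

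**Figure D5:**
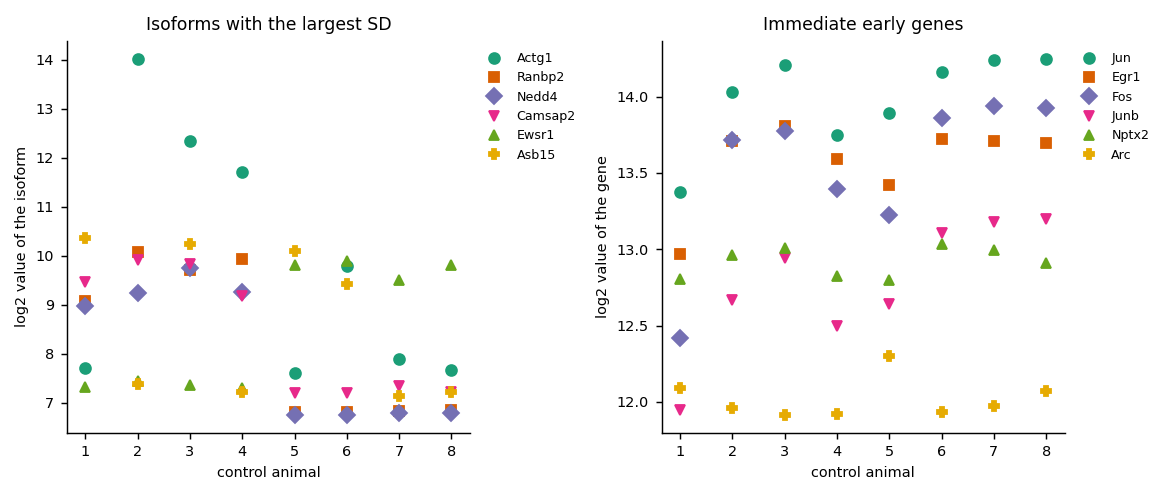
Log2 values by control animal. Left, 1 isoform each of 6 genes among those with the largest SD, where Ranbp2, Nedd4 and Camsap2 lie between 8.98 and 10.07 in animals 1 to 4 and between 6.76 and 7.34 in animals 5 to 8; right, 6 immediate early genes, where Jun, Egr1, Fos and Junb are lowest in control 1 while Nptx2 and Arc are not.

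Immediate early genes are transcribed rapidly after neuronal activity, without new protein synthesis. Their list mean was 10.72 ± 0.15 (SD, n = 8), the widest SD of the 25 lists, with 10.39 in control 1 and 10.66 to 10.84 in the others. This rank rested on control 1: without it the SD was 0.089, below the 0.13 of the ependymal list. Of its 30 measured genes 17 were variable, against 10% of all genes, and control 1 was the lowest animal in 14, against 20.9% of all genes. Control 1 was also the lowest in 52 of the 74 respiratory chain genes and in 56 of the 80 ribosomal protein genes. Fos was at 12.42 in control 1 and 13.22 to 13.94 elsewhere (median 13.75). Jun ranged from 13.37 to 14.25, Egr1 from 12.97 to 13.81 and Junb from 11.95 to 13.20, each lowest in control 1. Atf3, of the stress response, ranged from 8.59 to 10.47 (median 9.95).

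Not all activity-regulated genes took part. Nptx2, a secreted pentraxin of excitatory synapses, ranged from 12.80 to 13.04, Arc, which controls AMPA receptor removal, from 11.92 to 12.30, and Egr3 from 11.46 to 11.75, and none was variable. Bdnf, the neurotrophin, ranged from 9.27 to 9.55. Outside the list, Zfp36, which speeds mRNA decay, and Socs3, an inhibitor of cytokine signalling, were among the genes with the largest SD and were also lowest in control 1, at 10.78 and 8.04, against 11.38 to 12.21 and 8.24 to 9.42. Handling, slicing and recovery precede the RNA, and their part in these values was not tested.

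Promoter sequence was available for 24 of the 30 genes (80%), in 29 windows of 300 bases from 250 before to 50 after a start, from RefSeq on GRCr8. TATAAA was found on either strand in 8 of the 29 windows (27.6%), TGACGTCA, the full cyclic AMP response element, in 3 (10.3%), and the CArG box, the core of the serum response element, in 2 (6.90%). Among all 33469 windows of the table the shares were 14.2%, 1.83% and 1.64%. The counts are small, windows of a gene overlap, and a match is only a match of letters. Arc, Atf3, Egr3, Fos, Jun and Nr4a3 were not among the 24. The windows below are, for each motif, the gene with the largest SD among the 24 that holds it, with the motif in capitals, so that the motifs can be read in place.
Btg2 (GRCr8 chr13:48087641-48087940, minus strand): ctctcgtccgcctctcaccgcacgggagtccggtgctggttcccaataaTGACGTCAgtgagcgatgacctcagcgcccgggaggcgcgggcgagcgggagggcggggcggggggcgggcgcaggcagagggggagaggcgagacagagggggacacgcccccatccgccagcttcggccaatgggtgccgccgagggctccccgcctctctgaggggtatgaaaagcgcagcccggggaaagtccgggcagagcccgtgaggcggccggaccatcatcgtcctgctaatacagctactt
Junb (GRCr8 chr19:40080876-40081175, plus strand): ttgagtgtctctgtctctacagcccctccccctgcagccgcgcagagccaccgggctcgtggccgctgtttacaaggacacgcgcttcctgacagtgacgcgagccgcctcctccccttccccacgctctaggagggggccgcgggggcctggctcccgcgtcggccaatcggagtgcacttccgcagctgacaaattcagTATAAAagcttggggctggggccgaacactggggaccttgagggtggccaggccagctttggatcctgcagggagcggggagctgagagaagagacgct
Egr1 (GRCr8 chr18:26736828-26737127, plus strand): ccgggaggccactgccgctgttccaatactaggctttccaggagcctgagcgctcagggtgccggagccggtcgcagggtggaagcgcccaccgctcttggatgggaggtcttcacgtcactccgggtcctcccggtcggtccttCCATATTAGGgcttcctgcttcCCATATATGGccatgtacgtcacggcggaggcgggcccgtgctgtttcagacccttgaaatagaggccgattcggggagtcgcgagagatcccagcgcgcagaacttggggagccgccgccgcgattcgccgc

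Btg2, an antiproliferative gene, holds TGACGTCA at position -201 from its start, and its log2 values were 11.19 to 12.39 (median 12.12). Junb holds TATAAA at position -49. Egr1, a zinc finger transcription factor, holds CArG boxes at positions -105 and -83.

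Ratios of reads between related genes are given as a description, since their level depends on the lengths of both genes. Over 13 pairs of 16 listed, the SD of the log2 ratio ran from 0.055 for Dlg3 over Dlg4, scaffolds of the same family, to 0.18 for Camk2a over Camk2b, beside a median SD of 0.081 for single genes. Grin2b and Grin2a had SDs of 0.49 and 0.44, while their log2 ratio ran only from -0.92 to -0.67, so both subunits moved together between the sets. Slc12a5 over Slc12a2, the chloride exporter KCC2 over the importer NKCC1, was at 1.40 in control 1 and 1.604 to 1.77 in the others. Nr3c2 over Nr3c1, the mineralocorticoid over the glucocorticoid receptor, was at -0.31 in control 2 and -0.76 to -0.64 in the others. Gad1 over Gad2 ran from -1.06 to -0.75.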

How the data were processed

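RNA-seq libraries of dorsal CA1 from 8 saline-injected rats were analysed, out of 16. The table deposited by the authors gives each Ensembl isoform 1 log2 value per animal. Each isoform has a floor of its own, and no source used here names the transform. The submitters' processing notes name GATK, SAMtools, DESeq2, RSEM and Trim Galore without versions. Aligner and build: not given in the sources used here. Depth is unknown, so no counting intervals are given.

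Values were used as deposited, with Python 3.11.15 (numpy 2.4.6, pandas 2.3.3). A spreadsheet had turned 23 symbols of 51 isoforms into dates, and these were left out of gene values. Another isoform had the very same values for 191 isoforms. Genes with exactly 2 isoforms were tested with limma 3.58.1 in R 4.3.3: the difference between the isoforms in each animal, in the order of their Ensembl identifiers, against 0, with a mean-variance trend, robust empirical Bayes, two-sided p-values and Benjamini-Hochberg adjustment, and genes with identical isoforms left out. The procedure was tested on simulated data. Apart from Dixon's test for a library that stands apart, nothing else was tested. The p-values set a mean difference against the spread between these 8 animals only, taken as independent. With a covariate for replicates 1 to 4 against 5 to 8, run as an alternative, 2909 of 2979 genes passed, against 2896.

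The genes named are 12 of the 15 nuclear genes with the largest shares, the highest in level of the genes with differing or near-even isoforms and those with most isoforms, up to 12 of an isoform panel, up to 4 members of each marker list by level, the genes and isoforms with the largest and smallest SD, the gene pairs, and what stood apart in a single library. Some genes that these rules name are not reported here. The rules for gaps between animals, for the sets of replicates 1 to 4 and 5 to 8, and the promoter windows printed were chosen after the values were seen, as were Slc17a7, Zfp36, Socs3, Grin2b, Zbtb20, Trrap, Grm5 and the defining markers named from lower in their lists, such as C1ql2, Fezf2, Lhx1, Eomes and Ahsp. The members and lists were chosen with earlier results of these data known. Promoters were matched by symbol, or by a synonym in RefSeq, and 71.4% of all measured genes had a window.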

Additional observations from a re-analysis of the deposited data

Results flagged for a closer look

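For Dixon's test, the gap of a library to the nearest of the other 7 was divided by the range of all 8 values. A library was picked out where this ratio exceeded the 95% critical value (0.526 for 8 samples), which chance does in about 1 of 20 groups. Of 89 measures examined 14 were picked out, and 10 of them were in control 2. The measures include isoform shares and values chosen because they differ between animals or have no clear top isoform. Among the 64 measures not chosen in that way, 8 were picked out, 4 of them in control 2. No cause was tested for any of them.

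In control 2, Mt-co2 held 0.639% of reads against 0.761% to 0.846% in the other 7, and Actb held 0.248% against 0.183% to 0.193%. The choroid plexus list mean was 4.93 in control 2 against 4.85 to 4.88, on a list with 5 of 8 genes near the floor. Only 1 of the 8 genes was highest in control 2. It was Enpp2, which is also in the myelin list, at 11.11 against 10.57 to 10.94. The log2 ratio of Nr3c2 to Nr3c1 was -0.31 against -0.76 to -0.64. The top isoform held 39.1% of Sptbn1 in control 2 against 49.6% to 53.0%, 44.8% of Apc against 53.1% to 58.6%, 43.1% of Mbp against 47.3% to 50.7% and 54.9% of Atp2a2 against 57.9% to 60.2%. It held 48.3% of Arpc2 against 35.4% to 40.5% and 53.2% of Gabbr1 against 44.6% to 46.6%.

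In control 1, the mean of the immediate early genes was 10.39 against 10.66 to 10.84, and the log2 ratio of Slc12a5 to Slc12a2 was 1.40 against 1.604 to 1.77. In control 6, nuclear ribosomal RNA held 0.0252% of reads against 0.0032% to 0.0131%, and the mean of the cortical layer genes was 9.58 against 9.51 to 9.54.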

How the results depend on the processing

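The number of genes with exactly 2 isoforms that passed the test, and the number with a constant top isoform, stayed within 1.5 times their values under every alternative run, including symbols covering several Ensembl genes left out (an alternative added after the data were seen), which gave 2834 of 2917 and 3433. Leaving out 1 animal gave 2879 to 2898 and 3530 to 3589. The reads outside top isoforms were 22.6% with isoforms under 5 left out, against 21.1% ± 1.01, and 20.9% to 21.3% without 1 animal. With the sets of replicates 1 to 4 and 5 to 8 each centred, 206 genes had an SD over 0.25, against 446, and 368 to 505 did so without 1 animal. Isoforms with a gap over 1 numbered 56 to 123 without 1 animal, 56 being the number without control 2, against 105. The share of the top 100 genes was 22.3% to 22.6%, and no list's share moved by 1 SD.

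Of the named genes with 2 isoforms, Gria2 passed under each alternative. Sptbn1 ran from -0.093 to 0.024 without 1 animal, changing sign without control 1 (0.019), 3 (0.023), 5 (0.024), 6 (0.0044), 7 (0.0051) or 8 (0.015), none of which passed, and passing only without control 2. Dgkz (0.40 to 0.65) and Sirt2 (0.083 to 0.14) kept their sign but failed without 5 and 7 of the animals. No paired analysis was possible because only the control group is described, so no animal could be matched to one of another group. This concerns pairs of animals only, since the limma test compared the 2 isoforms of a gene within each animal. Levels per kilobase and the tests between paired genes were not run, since no transcript lengths were used here. The SD of the immediate early gene list was 0.15 to 0.16 under each scaling. Unknown depth and the compressed scale limit what can be said of low genes.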
